A study of Homo sapiens with 5 samples.

Results

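The genes described here are receptors through which fat-derived hormones and IL-6 type cytokines act, the transcription factor STAT3, and its feedback inhibitor SOCS3. They were chosen by symbol from the deposited count table, in which all 10 were found among 57992 genes: LEPR, ADIPOR1, ADIPOR2, CDH13, CMKLR1, IL6R, IL6ST, OSMR, STAT3 and SOCS3. The cells are Ishikawa cells, an established line of endometrioid endometrial cancer, and their poly(A) RNA was sequenced. The co-culture group (2 libraries) had shared medium for 3 days with mature adipocytes held above them on a membrane with pores of 0.4 μm, and the adipocytes had been differentiated from preadipocytes with insulin, dexamethasone and IBMX. The EX527 co-culture group (2 libraries) was the same co-culture with EX527, an inhibitor of the deacetylase SIRT1. The monoculture group (1 library) was Ishikawa cells grown alone. Every group is the same cell line, a library of EX527 on cells grown alone was not analysed here, and nothing in the labels says whether replicates came from separate cultures, so the spread between them may be technical.

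Leptin signals through LEPR, and adiponectin through ADIPOR1 and ADIPOR2, which act on AMPK and PPARα, while T-cadherin (CDH13) binds adiponectin at the cell surface through a lipid anchor. Chemerin, made by adipocytes, is sensed by CMKLR1. IL-6 binds IL6R, and the complex recruits the shared chain gp130 (IL6ST), which also pairs with OSMR for oncostatin M. Activated LEPR and gp130 act through JAK kinases that phosphorylate STAT3. Phosphorylated STAT3 then enters the nucleus and turns on genes that include SOCS3, whose product shuts the receptors down. Endometrial cancer is strongly associated with obesity, and leptin and IL-6 from fat tissue are among the signals studied for that link.

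Dimers of STAT factors bind a short palindrome, TTCNNNGAA, and this was searched in the 250 bases before the start of 9 members in GENCODE 44 on GRCh38. Because it is a palindrome, 1 search covers both strands. It occurred once before ADIPOR1, and the other 8 windows had no match to these letters. Among all 20033 protein-coding windows, 1202 (6.0%) held it. The window of ADIPOR1 (chr1:202958573-202958822, minus strand) is shown with the match in capitals, beside IL6R (chr1:154404943-154405192, plus strand), the member with the widest difference that was called with either EX527 library alone, whose window has no match:
ADIPOR1: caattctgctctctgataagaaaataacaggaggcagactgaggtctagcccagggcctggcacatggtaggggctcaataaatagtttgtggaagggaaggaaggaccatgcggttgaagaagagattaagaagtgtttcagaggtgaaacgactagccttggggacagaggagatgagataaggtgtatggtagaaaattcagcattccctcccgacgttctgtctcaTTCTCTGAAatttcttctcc
IL6R: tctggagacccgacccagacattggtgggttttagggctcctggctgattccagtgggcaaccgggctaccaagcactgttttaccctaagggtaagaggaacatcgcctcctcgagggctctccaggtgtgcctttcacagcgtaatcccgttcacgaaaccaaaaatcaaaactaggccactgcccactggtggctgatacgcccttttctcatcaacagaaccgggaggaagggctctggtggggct
The ADIPOR1 match, TTCTCTGAA, starts 20 bases before the gene start. The windows depend on which start is used: in RefSeq's table (GRCh38.p14, 300 bases per start), which holds 7 of these 9 members, the letters occur at 1 of 3 starts of ADIPOR1 and at the only start of CMKLR1. Of all 35116 windows in that table, 2689 (7.66%) held them. A match is a description of the sequence, and binding was not measured.

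The libraries held 45653845 to 52269963 counted reads, so 3 reads correspond to 0.0574 to 0.0657 CPM before normalization. CPM is a gene's read count scaled to a common library total (1000000 reads) after TMM normalization, which adjusts for differences in composition. EX527 replicate 1 stood apart: 33325 genes had 10 reads or more in it against 26022 to 27103 in the other 4 libraries, and long intergenic noncoding RNAs took 2.66% of its reads against 1.36% to 1.49%. Across 34658 genes tested, the median absolute log2 difference between replicates was 0.81 for the EX527 pair and 0.16 for the co-culture pair. Epithelial markers (12 of 12 with 10 reads or more in every library) marked the cells as epithelial in all 5 libraries, at a summed 7111 and 6496 CPM in co-culture, 1589 and 2698 under EX527 and 2723 in monoculture. The 12 adipocyte markers summed to 50.3 and 51.0 CPM in co-culture, 66.3 and 76.7 under EX527 and 96.4 in monoculture, none at 0. In bulk RNA, fewer cells of a type and less RNA per cell cannot be told apart.

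Per length, the members fell into an abundant and a scarce set. Levels are CPM per kilobase of annotated exon, as the mean of the 5 libraries: ADIPOR1 stood highest at 31.2, with libraries from 22.7 to 42.6, followed by IL6ST at 20.7 (17.2 to 23.8) and ADIPOR2 at 17.7 (12.3 to 20.9). These are the adiponectin receptors and the shared gp130 chain, and their ranges overlapped one another. STAT3 followed at 7.39 (5.63 to 10.9), LEPR at 6.08 (5.40 to 6.92) and OSMR at 5.76 (5.03 to 6.65), again with overlapping ranges but all below the lowest library of ADIPOR2. SOCS3 lay lower, at 1.12 (0.794 to 1.30), with no library in common with OSMR. CDH13 at 0.609 (0.122 to 2.35), CMKLR1 at 0.308 (0.102 to 0.460) and IL6R at 0.271 (0.0964 to 0.555) closed the order, and their ranges overlapped. Using the canonical transcript's length instead raised STAT3 to 16.8 without moving its rank, but its highest library (24.9) then passed the lowest of ADIPOR2 (18.0). It also exchanged CMKLR1 (0.318) with IL6R (0.329) at the end.

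**Figure D1:**
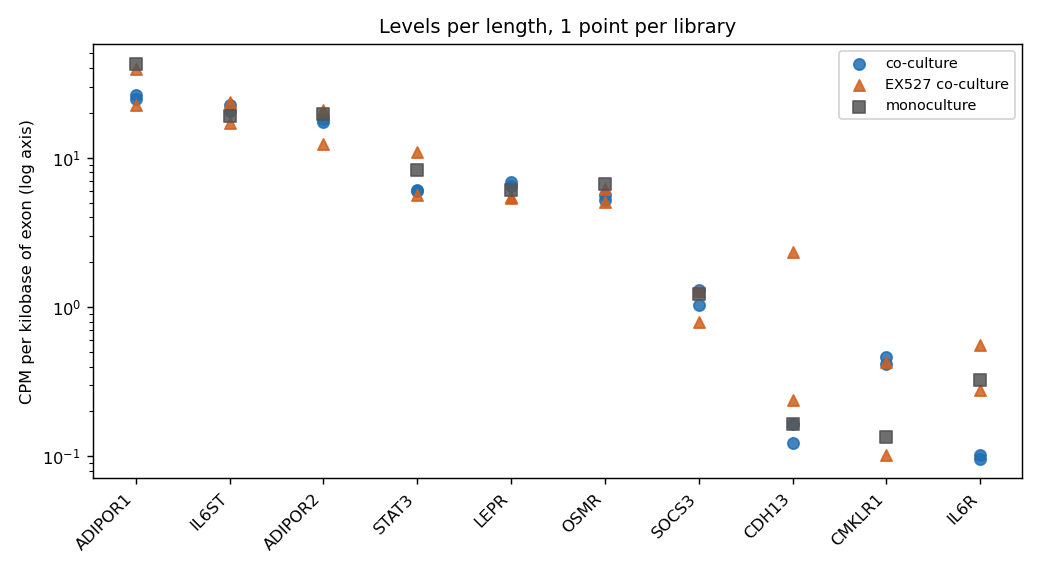
Levels of the 10 members per length, in CPM per kilobase of exon on a log axis, with 1 point per library and genes in order of their mean. ADIPOR1, IL6ST and ADIPOR2 lie on top, IL6R and CMKLR1 at the bottom, and CDH13 has 1 EX527 library at 2.35, far above its other points.

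The first comparison asked what differed between co-culture with EX527 and co-culture without it. In both EX527 libraries IL6R and CDH13 were higher than in both co-culture libraries, and LEPR was lower. The other 7 members had EX527 libraries that overlapped the co-culture range, and for 6 members the EX527 libraries lay on opposite sides of the co-culture mean, as 32.7% of all tested genes did. None of the 10 members passed an adjusted p of 0.05 in edgeR's quasi-likelihood test with Benjamini-Hochberg adjustment over all 34658 genes, where 0.0% of genes were called. At an unadjusted p under 0.05 edgeR gave 2 members, both higher, against 19.3% of all genes in either direction (10.0% higher). At an adjusted p under 0.05 DESeq2 called the same number, CDH13 and IL6R, against 11.9%. By that threshold limma-voom called no member and no gene at all. Its unadjusted p was under 0.05 for 5266 genes, with IL6R the only member among them (limma-voom p 0.0242). The 2 members whose groups did not overlap and were higher compare with 28.3% of all genes, and the 1 that was lower with 26.8%. An exact permutation test of 2 against 2 libraries cannot go below a two-sided p of 0.333. The members' median log2 difference was -0.02, against 0.15 for all genes. Scaling by library size alone shifted the all-gene median to 0.42 and moved the members' values upward with it.

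**Figure D2:**
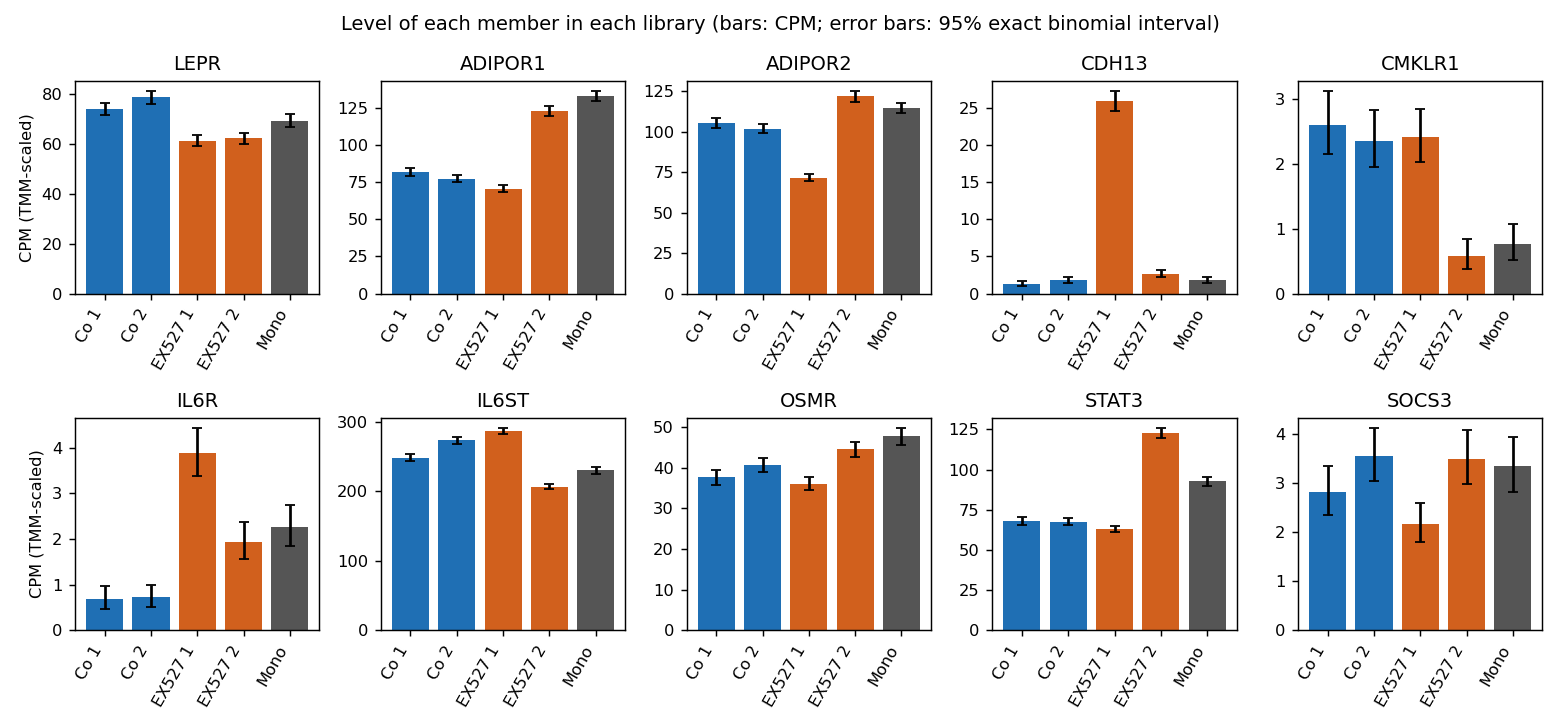
Level of each member in each library in CPM, with bars from 0 and exact 95% binomial intervals that cover counting error only. Co 1 and Co 2 are the co-culture libraries. From log2 CPM with a prior count of 2, the EX527 libraries differ 9.68-fold for CDH13, 3.99-fold for CMKLR1 and 1.98-fold for IL6R. They differ 1.95-fold for STAT3 and 1.01-fold for LEPR.

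Which members were called depended on which EX527 library was kept. Without EX527 replicate 1, edgeR called 7 members, 4 higher and 3 lower, against 44.2% of genes (21.7% higher and 22.6% lower). Without EX527 replicate 2 it called 5, 3 higher and 2 lower, against 70.2% (39.1% higher and 31.1% lower). Only IL6R and LEPR were called in the same direction with either library alone (2 members, 29.1% of genes tested in both fits), and ADIPOR2 and IL6ST were called in opposite directions (2 members, 5.27%). In these fits the lone EX527 library is assumed to vary like the co-culture pair, which alone gives the spread, and the common dispersion was 0.00434 and 0.0045 against 0.264 with all 5 libraries. With 9 of the 10 members, the EX527 pair differed by more than the co-culture pair, as 84.4% of all genes did.

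**Figure D3:**
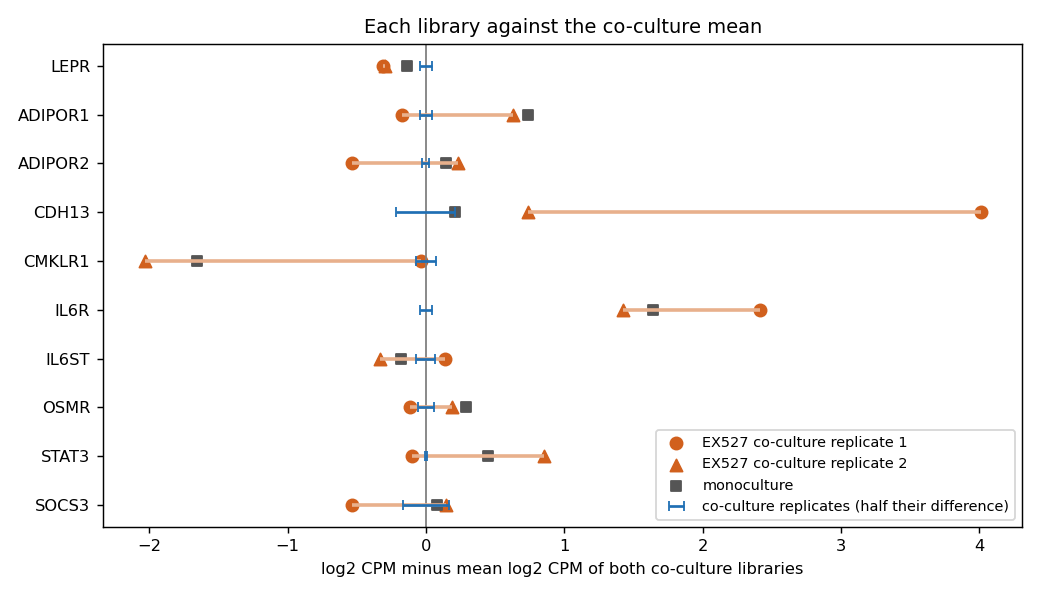
Difference of each library from the mean log2 CPM of both co-culture libraries, for each member. An orange line joins the EX527 libraries and the blue bar spans the co-culture pair: the orange line crosses 0 for ADIPOR1, ADIPOR2, IL6ST, OSMR, STAT3 and SOCS3, and both of its ends lie right of 0 for CDH13 and IL6R.

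LEPR, the leptin receptor (chr1:65420652-65641559, plus strand), was at 74.0 and 78.7 CPM in co-culture, 61.4 and 62.3 under EX527 and 69.4 in monoculture. Both EX527 libraries were below the other 3, both co-culture libraries were above the other 3, and the groups did not overlap. The EX527 pair differed by 1.01-fold, and in 98.4% of all genes it was at least as far apart. With EX527 the log2 fold change was -0.30 (SE 0.18, edgeR adjusted p 0.366), and it was -0.29 without EX527 replicate 1 (adjusted p 0.0046) and -0.27 without replicate 2 (adjusted p 0.00756). The order rested on the scaling: by library size alone the log2 fold change was -0.03, with 67.8 and 73.4 CPM on that scale in co-culture and 74.3 and 64.0 with EX527, which overlap. Against monoculture, co-culture differed by 0.14 on the log2 scale (SE 0.22, edgeR adjusted p 0.870). LEPR shares its first exons with LEPROT, a regulator of receptor traffic (165 exon bases in common on the same strand), so reads there cannot be assigned. LEPROT was likewise lower with EX527, at 49.0 and 53.7 CPM in co-culture, 37.7 and 39.0 under EX527 and 39.4 in monoculture.

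ADIPOR1, the adiponectin receptor linked to AMPK (chr1:202940826-202958572, minus strand), was at 81.9 and 77.2 CPM in co-culture, 70.7 and 123 under EX527 and 133 in monoculture. EX527 replicate 1 was the lowest library and replicate 2 lay near monoculture, so the treated pair enclosed the co-culture pair. The log2 fold change with EX527 was 0.28 (SE 0.31, edgeR adjusted p 0.586), and it was 0.64 without replicate 1 (adjusted p 5.05e-13) and -0.13 without replicate 2 (adjusted p 0.198). Both co-culture libraries lay below the monoculture library. That difference was -0.74 on the log2 scale (SE 0.37, edgeR adjusted p 0.427), and -0.79 without EX527 replicate 1 (adjusted p 6.58e-20).

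ADIPOR2, the adiponectin receptor linked to PPARα (chr12:1688574-1788674, plus strand), was at 105 and 102 CPM in co-culture, 71.6 and 122 under EX527 and 115 in monoculture. The EX527 libraries were the lowest and the highest of the 5. With EX527 the log2 fold change was -0.10 (SE 0.30, edgeR adjusted p 0.848), which became 0.24 without replicate 1 (adjusted p 0.0119), -0.49 without replicate 2 (adjusted p 5.74e-06) and 0.15 by library size alone. The EX527 replicates differed 1.74-fold for ADIPOR1 and 1.70-fold for ADIPOR2, and 50.4% and 52.2% of all genes were at least as far apart. Co-culture against monoculture differed by -0.15 (SE 0.36, edgeR adjusted p 0.929).

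CDH13 (T-cadherin, chr16:82626965-83800640, plus strand) was at 1.35 and 1.83 CPM in co-culture, 25.9 and 2.64 under EX527 and 1.82 in monoculture. A single library, EX527 replicate 1, carried 1468 reads, against 60 to 124 in the other 4. The treated mean was 14.3 ± 16.5 CPM (SD, n = 2) against 1.59 ± 0.338 in co-culture (SD, n = 2). The log2 fold change was 3.18 (SE 1.16, edgeR unadjusted p 0.0407, adjusted p 0.243), with an adjusted p of 0.00032 in DESeq2. Without EX527 replicate 1 it was 0.73 (edgeR adjusted p 0.057) and without replicate 2 it was 4.06 (adjusted p 1.70e-22). By log2 CPM the EX527 replicates differed 9.68-fold, a gap matched or exceeded by 5.94% of all genes. Over the whole table more genes had 10 reads or more in that library (33325 against 26022 to 27103), and markers of other cells were among them. All 12 fibroblast and preadipocyte markers had 10 reads or more in EX527 replicate 1, against 4 to 6 in the other 4 libraries. All 12 adipocyte markers did too, against 6 to 10. Their summed levels did not set it apart, at 114 CPM for the fibroblast list against 127 to 272 in the other 4 libraries, with DCN at 0 in co-culture replicate 1, POSTN and DLK1 in co-culture replicate 2, and DCN and POSTN in EX527 replicate 2, and their part in the CDH13 value was not tested. Against co-culture, the median log2 fold change without EX527 replicate 2 was 0.06 for the 12 adipocyte markers and 2.76 for the 12 fibroblast markers. All genes gave 0.16. Without replicate 1 the medians were -0.08 and -0.55, against -0.0051 for all genes, from 10 adipocyte and 7 fibroblast markers. The remaining markers passed the filter on low counts only with replicate 1 kept, so the filter favours high values in that library. Noncoding genes in CDH13 introns had more reads in EX527 replicate 1 too, such as CEDORA with 68 against 2 to 3.

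CMKLR1, the chemerin receptor (chr12:108288044-108339317, minus strand), was at 2.61 and 2.36 CPM in co-culture, 2.42 and 0.575 under EX527 and 0.761 in monoculture. The libraries formed a high set of 3, co-culture and EX527 replicate 1, and a low set of 2, EX527 replicate 2 (exact 95% binomial interval 0.379 to 0.836, 27 reads) and monoculture (0.524 to 1.07, 33 reads). With EX527 the log2 fold change was -0.67 (SE 0.65, edgeR adjusted p 0.536), and it was -2.10 without replicate 1 (adjusted p 1.20e-05) and 0.01 without replicate 2 (adjusted p 0.977). Co-culture exceeded monoculture by 1.70 on the log2 scale (SE 0.97, edgeR adjusted p 0.500), and by 1.65 without EX527 replicate 1 (adjusted p 0.000307). The 8 immune markers summed to 25.7 and 25.0 CPM in co-culture, 33.0 and 19.7 under EX527 and 19.0 in monoculture, with 5 to 8 of them at 10 reads or more. PTPRC, the general leukocyte gene, was at 3.06 and 4.17 CPM in co-culture, 2.47 and 0.341 under EX527 and 0.830 in monoculture. Other immune markers went the other way with all 5 libraries: with EX527, 6 of the 8 had a positive log2 fold change. That depended on EX527 replicate 1. Without it, 2 of 6 tested were positive, with a median of -0.28 against -0.0051 for all genes. Without replicate 2, 6 of 8 were positive, with a median of 1.33 against 0.16. The remaining markers passed the filter on low counts only with replicate 1 kept. With all 5 libraries the median of the list was 1.045, against 0.15 for all genes, and CD14 was at 1.92 (SE 0.71, edgeR adjusted p 0.241). TYROBP, a myeloid adaptor gene, had no read in either co-culture library or in EX527 replicate 2, and the part of other cells in the CMKLR1 values was not tested. CMKLR2, another chemerin receptor (listed as GPR1), was lowest in co-culture, at 0.0674 and 0.246 CPM in co-culture, 5.31 and 1.98 under EX527 and 2.81 in monoculture.

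IL6R, the receptor specific for IL-6 (chr1:154405193-154469450, plus strand), was at 0.674 and 0.719 CPM in co-culture, 3.88 and 1.94 under EX527 and 2.26 in monoculture. Both co-culture libraries were below the other 3, with 30 and 35 reads against 91 to 220, and the exact 95% interval of EX527 replicate 2 (1.56 to 2.38) did not reach theirs. The log2 fold change with EX527 was 2.08 (SE 0.57, edgeR unadjusted p 0.0145, adjusted p 0.182), with an adjusted p of 0.0282 in DESeq2. Without EX527 replicate 1 it was 1.48 (edgeR adjusted p 0.0015) and without replicate 2 it was 2.52 (adjusted p 9.67e-09). Without co-culture replicate 1 or 2, where the EX527 pair alone gives the spread, it was 2.04 and 2.13 and was not called (edgeR adjusted p 0.907 and 0.888), nor was it in limma-voom (adjusted p 0.25). Co-culture against monoculture gave a log2 difference of -1.69 (SE 0.71, edgeR adjusted p 0.346), or -1.74 without EX527 replicate 1 (adjusted p 7.53e-05). These co-culture values enter both comparisons, which are therefore not independent of each other. The antisense gene IL6R-AS1 had 0 to 7 reads per library and shares no exon base with IL6R. PSMD8P1, a processed pseudogene that overlaps IL6R on the opposite strand, also shares no exon base with it. It had 36 reads in EX527 replicate 1, where IL6R was highest, and 0 to 2 in the other libraries.

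IL6ST, the gp130 chain shared by the IL-6 family (chr5:55935095-55995022, minus strand), was at 249 and 274 CPM in co-culture, 287 and 207 under EX527 and 230 in monoculture. It was the member with the most reads, 9719 to 16260 per library, and the EX527 pair enclosed the other 3 libraries. With EX527 the log2 fold change was -0.08 (SE 0.23, edgeR adjusted p 0.842), and it was -0.33 without replicate 1 (adjusted p 0.000236), 0.18 without replicate 2 (adjusted p 0.0362) and 0.22 by library size alone. Co-culture against monoculture differed by 0.18 (SE 0.28, edgeR adjusted p 0.865). An antisense noncoding gene overlaps IL6ST exons by 797 bases and held 2070 to 2966 reads, and a processed pseudogene in an intron held 4154 to 9185, so part of the assignment between them is uncertain. Both IL6ST and the pseudogene had their most reads in EX527 replicate 1.

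OSMR, the oncostatin M receptor chain (chr5:38845858-38945596, plus strand), was at 37.6 and 40.7 CPM in co-culture, 36.1 and 44.5 under EX527 and 47.7 in monoculture. The range over all 5 libraries was narrow, with monoculture highest and the EX527 pair on either side of co-culture. The log2 fold change with EX527 was 0.04 (SE 0.21, edgeR adjusted p 0.916), and its sign changed without EX527 replicate 2 (-0.07) and without co-culture replicate 1 (-0.01). Co-culture was below monoculture by -0.29 on the log2 scale (SE 0.25, edgeR adjusted p 0.705), and by -0.33 without EX527 replicate 1 (adjusted p 0.00171). RICTOR, on the opposite strand, shares 229 exon bases with OSMR and had 2578 reads in monoculture against 1185 to 1660 elsewhere. The counting is not stated to use strand, so reads in that stretch cannot be told apart.

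STAT3, the factor on which LEPR and gp130 converge (chr17:42313324-42388540, minus strand), was at 68.0 and 67.5 CPM in co-culture, 63.1 and 123 under EX527 and 92.7 in monoculture. The co-culture replicates were nearly equal, differing by 0.01 on the log2 scale, whereas the EX527 replicates differed 1.95-fold, with replicate 1 below co-culture and replicate 2 above all others. With EX527 the log2 fold change was 0.45 (SE 0.35, edgeR adjusted p 0.451), and it was 0.86 without replicate 1 (adjusted p 5.05e-23) and -0.06 without replicate 2 (adjusted p 0.564). Co-culture was below monoculture by -0.45 on the log2 scale (SE 0.42, edgeR adjusted p 0.723), and by -0.50 without EX527 replicate 1 (adjusted p 3.89e-08). These are transcript levels, and phosphorylated STAT3 was not measured.

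SOCS3, the feedback inhibitor induced by STAT3 (chr17:78356778-78360077, minus strand), was at 2.81 and 3.55 CPM in co-culture, 2.17 and 3.49 under EX527 and 3.34 in monoculture. The 123 to 173 reads per library left the co-culture, EX527 and monoculture ranges overlapping, with EX527 replicate 1 lowest. The log2 fold change with EX527 was -0.19 (SE 0.39, edgeR adjusted p 0.781), and it was 0.13 without replicate 1 (adjusted p 0.709), -0.51 without replicate 2 (adjusted p 0.095) and 0.08 by library size alone. Co-culture against monoculture gave -0.07 (SE 0.47, edgeR adjusted p 0.993). SOCS3 was the only one of the 10 members called under none of the tests and alternatives run, in any of the 3 comparisons.

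**Figure D4:**
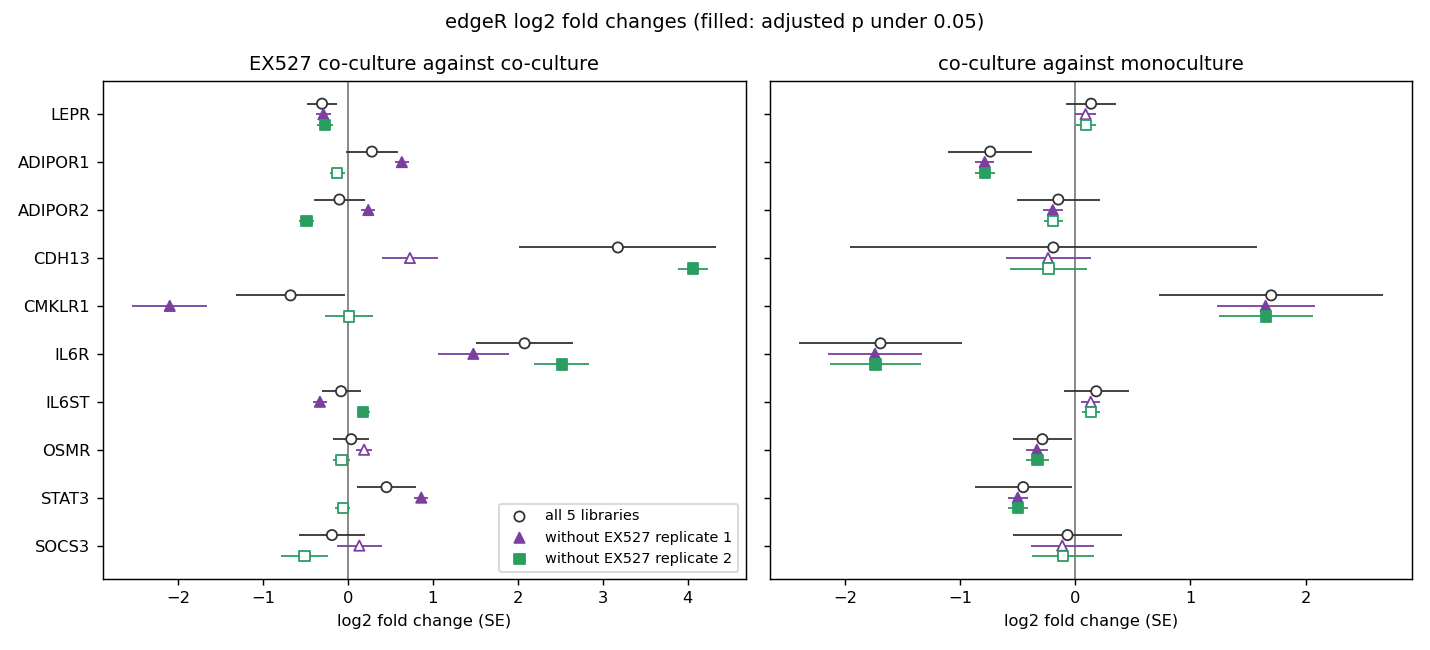
Log2 fold changes of the 10 members with their SE in edgeR, with all 5 libraries and without either EX527 library, for EX527 against co-culture and for co-culture against monoculture. Filled symbols have an adjusted p under 0.05: none with all 5 libraries, 7 and 5 for EX527, 6 and 5 for co-culture.

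The second comparison asked what co-culture with adipocytes changed. Relative to the 1 monoculture library, CMKLR1, LEPR and IL6ST were higher in both co-culture libraries, and ADIPOR1, ADIPOR2, IL6R, OSMR and STAT3 were lower, while CDH13 and SOCS3 in monoculture lay between the co-culture libraries. No member was called by edgeR with all 5 libraries (0.0% of genes), none had an unadjusted p under 0.05 (15.9% of genes), and none was called by DESeq2 (12.8%) or limma-voom, which called no gene at all (4848 at an unadjusted p under 0.05). The monoculture library lay outside the co-culture pair for 8 members, against 83.5% of all genes, with 3 members higher in co-culture (42.8% of genes) and 5 lower (40.7%). Without EX527 replicate 1, edgeR called 6 members, against 53.9% of genes: CMKLR1 was higher (26.9% of genes), and ADIPOR1, ADIPOR2, IL6R, OSMR and STAT3 were lower (27.1%). Without EX527 replicate 2 it called 5, against 44.6% of genes, with CMKLR1 higher (22.1%) and ADIPOR1, IL6R, OSMR and STAT3 lower (22.5%). The monoculture level rests on 1 library, whose own spread could not be measured, and in these fits it is assumed to vary like the co-culture pair.

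The third comparison set EX527 co-culture against monoculture and shares its libraries with the first and the second. No member was called by edgeR (0.0% of genes) or had an unadjusted p under 0.05 (7.37%), and DESeq2 called none (0.279%). The log2 differences ran from -0.46 for ADIPOR1 (SE 0.37) to 2.99 for CDH13 (SE 1.52), with 0.00 for STAT3 (SE 0.43) and 0.39 for IL6R (SE 0.58). Both EX527 libraries were below monoculture for LEPR, ADIPOR1 and OSMR, and above it for CDH13, 3 members lower and 1 higher against 27.1% and 33.7% of all genes, or 60.8% for both. Without EX527 replicate 1 edgeR called only STAT3 (0.36, adjusted p 0.0013, 1 member against 33.8% of genes and 14.7% higher), and without replicate 2 it called 8 members (62.2% of genes), 4 higher (33.4%) and 4 lower (28.8%), among them STAT3 in the other direction (-0.55, adjusted p 1.21e-05). EX527 replicate 2 was nearer to monoculture than replicate 1 was in all 10 members by log2 CPM, and in 70.7% of all genes.

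The rest of the pathway was described from 7 lists. With all 5 libraries edgeR called no gene of any list in any comparison, and the counts that follow are of genes tested, for EX527 against co-culture without replicate 1 and then without replicate 2. Over all genes those fits called 21.7% higher and 22.6% lower, and 39.1% higher and 31.1% lower. The medians given are the list's log2 fold changes in the same fits and order, where those of all genes were -0.0051 and 0.16.

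Among the ligands (10 genes of the adipokine and IL-6 type families), 3 of 9 were higher and none lower without replicate 1, and 5 of 9 were higher and 1 lower without replicate 2, with medians of 0.88 in both fits. These equal medians came from different genes. LIF was at 0.88 without replicate 1 and -0.19 without replicate 2, and RARRES2 was at 0.165 and 0.88. The genes tested differed too, as LEP was not tested without replicate 1 and OSM not without replicate 2. IL11, an IL-6 type cytokine, was at 0.742 and 0.616 CPM in co-culture, 1.85 and 3.19 under EX527 and 1.84 in monoculture, a log2 fold change of 1.88 with EX527 (SE 0.53, edgeR adjusted p 0.189). RARRES2, which encodes chemerin, was at 6.18 and 6.00 CPM in co-culture, 10.9 and 6.79 under EX527 and 3.46 in monoculture. Its monoculture level was the lowest of the 5, and EX527 exceeded monoculture by 1.36 on the log2 scale (SE 0.44, edgeR adjusted p 0.614). The ligands of LEPR and IL6R were near the floor in co-culture, with 2 and 6 reads of LEP and 4 and 1 of IL6. Under EX527 they had 33 and 6 reads of LEP and 36 and 11 of IL6, with 6 and 2 in monoculture. ADIPOQ, which encodes adiponectin, had 4 and 1 reads in co-culture, 51 and 12 under EX527 and 1 in monoculture. All of these were highest in EX527 replicate 1.

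Of the other receptors (8 genes, 7 tested), 3 were higher and 1 lower without replicate 1, and 2 higher and 3 lower without replicate 2, with medians of -0.08 and -0.27. CNTFR, the specific receptor of ciliary neurotrophic factor, was at 0.585 and 0.698 CPM in co-culture, 3.78 and 7.32 under EX527 and 3.48 in monoculture. Its low values were the co-culture libraries, as for IL6R and CMKLR2, and the log2 fold change with EX527 was 3.09 (SE 0.56, edgeR adjusted p 0.113). That of CMKLR2 was 4.51 (SE 0.90, edgeR adjusted p 0.113), from 3 and 12 reads in co-culture. CCRL2, which binds chemerin without signalling, had 0 to 4 reads per library and was not tested.

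Among the JAK kinases, phosphatases and PIAS proteins (12 genes), 6 were higher and 1 lower without replicate 1, and 4 higher and 6 lower without replicate 2, with medians of 0.20 and -0.21, which differ in sign. JAK2, the kinase bound to LEPR, was at 9.24 and 9.65 CPM in co-culture, 18.0 and 15.2 under EX527 and 31.2 in monoculture. Both co-culture libraries were the lowest, and co-culture differed from monoculture by -1.72 on the log2 scale (SE 0.26, edgeR adjusted p 0.124). PTPN6, the phosphatase SHP-1 that dampens JAK signalling, had the opposite order, at 57.4 and 52.7 CPM in co-culture, 31.1 and 34.3 under EX527 and 16.1 in monoculture. Its co-culture difference from monoculture was 1.77 (SE 0.26, edgeR adjusted p 0.123).

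Of the other STAT factors (6 genes), none was higher and 1 lower without replicate 1, and 1 was higher and 5 lower without replicate 2, with medians of -0.08 and -0.62. STAT6, which acts downstream of IL-4, was at 132 and 131 CPM in co-culture, 29.6 and 58.7 under EX527 and 42.1 in monoculture. Both co-culture libraries lay above the other 3, and the log2 fold change with EX527 was -1.58 (SE 0.36, edgeR adjusted p 0.148). STAT3 and STAT6 therefore stood in opposite order in co-culture and monoculture, at -0.45 (SE 0.42) and 1.65 (SE 0.47) on the log2 scale. STAT4 was at 0.405 and 0.185 CPM in co-culture, 3.43 and 0.617 under EX527 and 0.369 in monoculture, so that its 2.84 with EX527 (SE 1.11, edgeR adjusted p 0.257) rested on replicate 1, as for CDH13.

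Of the other SOCS proteins (7 genes), 1 was higher and 1 lower without replicate 1, and none higher and 5 lower without replicate 2, with medians of 0.16 and -0.44, which differ in sign. SOCS1, which inhibits JAK kinases directly, was at 4.92 and 6.55 CPM in co-culture, 1.55 and 2.41 under EX527 and 2.17 in monoculture. Both co-culture libraries lay above the other 3, and monoculture lay between the EX527 libraries. The log2 fold change with EX527 was -1.55 (SE 0.37, edgeR adjusted p 0.157), whereas that of SOCS3 was -0.19 (SE 0.39). The difference between these genes was not tested. SOCS4 was at 39.3 and 40.2 CPM in co-culture, 27.1 and 44.4 under EX527 and 68.0 in monoculture, and EX527 was below monoculture by -0.93 on the log2 scale (SE 0.34, edgeR adjusted p 0.614).

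In adiponectin signalling (12 genes), 5 were higher and 1 lower without replicate 1, and 3 higher and 7 lower without replicate 2, with medians of 0.10 and -0.36, which differ in sign. Against the 1 monoculture library, the co-culture median of the list without EX527 replicate 1 was -0.52, against 0.05 for all genes. Other lists were low in that fit too: -0.50 for the other SOCS proteins, -0.30 for the STAT3 targets and -0.26 for the JAK list. The other receptors were at -0.0053, the other STAT factors at 0.13 and the ligands at 0.16. PRKAB2, a subunit of AMPK, was at 21.2 and 20.2 CPM in co-culture, 26.7 and 40.5 under EX527 and 63.2 in monoculture, a co-culture difference of -1.61 (SE 0.31, edgeR adjusted p 0.136). PRKAA2, a catalytic subunit of AMPK, was at 37.7 and 38.2 CPM in co-culture, 50.8 and 49.4 under EX527 and 72.2 in monoculture. The order of the groups was the same, with a co-culture difference of -0.93 (SE 0.22, edgeR adjusted p 0.160).

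Of 28 genes listed as STAT3 targets, 27 were tested, and they were called in both directions: 10 of 25 tested were higher and 4 lower without replicate 1, and 13 of 27 were higher and 11 lower without replicate 2, with medians of 0.19 and 0.02, against 0.36 with all 5 libraries and -0.0029 in DESeq2. BIRC5, the survival protein survivin, was at 161 and 156 CPM in co-culture, 47.3 and 46.7 under EX527 and 70.1 in monoculture. Both EX527 libraries were alike and the lowest, and the log2 fold change was -1.75 (SE 0.18, edgeR adjusted p 0.0774). LCN2, the iron-binding protein lipocalin-2, was at 2.65 and 2.12 CPM in co-culture, 12.5 and 9.39 under EX527 and 9.84 in monoculture, a log2 fold change of 2.21 (SE 0.32, edgeR adjusted p 0.0858). In BIRC5 both EX527 libraries lay below co-culture, and in LCN2 above it. Both genes were named for the smallest unadjusted p of their list, so this separation follows from that choice. Of all genes, 28.3% had both EX527 libraries above co-culture and 26.8% had both below.

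**Figure D5:**
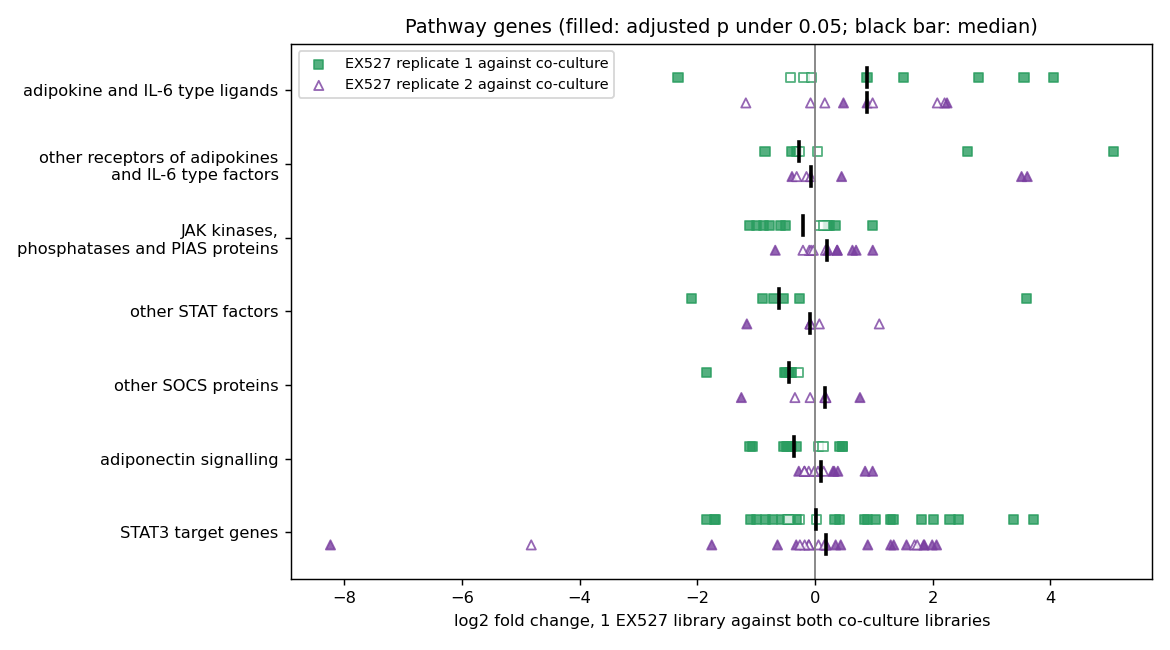
Log2 fold change of each listed pathway gene for 1 EX527 library against both co-culture libraries, with squares for replicate 1 and triangles for replicate 2, filled where the edgeR adjusted p is under 0.05, and the median as a black bar. The medians of replicate 1 lie above 0 for the ligands and the STAT3 targets and below 0 for the other 5 lists, and the triangles farthest left are STAT3 targets with no read in EX527 replicate 2.

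The genes whose pattern over the 5 libraries was most like that of LEPR, by the root mean square difference of centred log2 CPM among 13612 genes of mean log2 CPM 2 or more, were PPP3CB (0.0203), FANCC (0.0239) and RAB4A (0.0261). All had their EX527 libraries lowest and co-culture highest, as PPP3CB at 51.6 and 52.7 CPM in co-culture, 42.4 and 43.0 under EX527 and 47.9 in monoculture. For SOCS3 they were DNAJC16 (0.0406), PANX1 (0.0617) and LUZP1 (0.0739). Their shared feature was a low EX527 replicate 1, as DNAJC16 at 29.5 and 35.8 CPM in co-culture, 22.2 and 33.7 under EX527 and 32.8 in monoculture. These genes were picked for their likeness, so the order they share with LEPR or SOCS3 follows from that choice. The likeness is a description over 5 libraries after TMM scaling.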

How the data were processed

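Enriched poly(A) RNA from 500 ng of total RNA per sample gave 5 libraries, per the labels' protocols. STAR 2 mapped the reads to GRCh38.p7, and the tools FastQC, MultiQC, fastp, featureCounts and DESeq2 are listed too, per the submitters' processing notes. For the counting, neither annotation nor strand setting is given in the labels or headers. The authors deposited raw counts per gene, which were used, and a normalized signal, found to be the same counts over a library-wide size factor and not used further.

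In R 4.3.3, edgeR 4.0.16 fitted the counts with 1 coefficient per group over all 5 libraries (2 residual degrees of freedom), after filterByExpr (minimum count 10) and TMM scaling. Its quasi-likelihood F-test was adjusted by Benjamini and Hochberg over all 34658 genes, with a threshold of 0.05. All 10 members passed the filter. Alternatives were DESeq2 1.42.0, limma-voom (limma 3.58.1), other scalings, no filter, the older dispersion estimate, only the groups compared, each library left out, a replicate block, another prior count and, added after seeing the data, the canonical transcript's length. Log2 CPM used a prior count of 2. Lengths, positions and promoter windows come from GENCODE 44 on GRCh38, and RefSeq's promoter table was read beside them. The window of 1 member is not reported here. PCR copies are not independent molecules, so intervals and floors cover only the error of counting.

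The members and the gene lists (7 of pathways and 4 of markers) were chosen with earlier results of these data known. All members are described. Of each pathway list the 2 genes with the smallest unadjusted p over the 3 comparisons are named, as none was called, and 3 genes are named as most similar to LEPR and to SOCS3. LEPROT and other overlapping genes, CCRL2, LEP, IL6 and the marker genes are named for their relation to a member.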

Additional observations from a re-analysis of the deposited data

How the results depend on the processing

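With all 5 libraries and edgeR, 0 members were called in each comparison. For EX527 against co-culture, DESeq2 called 2 members, and leaving out 1 library gave 0 to 7. For co-culture against monoculture, a fit of only those groups called 6, and leaving out 1 library gave 0 to 6. For EX527 against monoculture, leaving out 1 library gave 0 to 8. The other settings run called no member. Fits without an EX527 replicate take their spread from the co-culture libraries, and fits without a co-culture replicate take it from the EX527 libraries and called 0 members in each comparison.

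Of 350 log2 fold changes under an alternative, 24 had the reverse sign. By library size alone, EX527 against co-culture became 0.148 for ADIPOR2, 0.215 for IL6ST and 0.0754 for SOCS3, and EX527 against monoculture became 0.087 for LEPR. Leaving out 1 library at a time, the range against co-culture was -0.126 to 0.635 for ADIPOR1, -0.487 to 0.240 for ADIPOR2, -2.10 to 0.0097 for CMKLR1, -0.329 to 0.182 for IL6ST, -0.0748 to 0.19 for OSMR, -0.0584 to 0.864 for STAT3 and -0.51 to 0.135 for SOCS3. For co-culture against monoculture the range was -0.431 to 0.0068 for CDH13 and -0.249 to 0.0895 for SOCS3. For EX527 against monoculture it was -0.678 to 0.0447 for ADIPOR2, -0.444 to 1.67 for CMKLR1, -0.263 to 0.782 for IL6R, -0.195 to 0.320 for IL6ST, -0.555 to 0.363 for STAT3 and -0.621 to 0.0213 for SOCS3. STAT3 there was 0.00195 with all libraries, -0.0498 in DESeq2, -0.0529 with DESeq2's size factors, -0.0498 without a filter and -0.0795 in limma-voom. The cause was not tested.

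The labels do not say that replicate numbers pair the samples, and the deviations of same-numbered co-culture and EX527 libraries had a correlation of -0.12 across 34658 genes. With the replicate number as a block in the 4 co-cultured libraries, 0 members and 867 of 28143 genes were called, against 0 genes without it.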
